A study of Gallus gallus with 14 samples.

Results

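Expression in the chicken retinal pigment epithelium (RPE) was compared between the 4 arrays of embryonic day 18 (E18) and the 3 arrays of embryonic day 10 (E10), 7 of the 14 arrays of a developmental time course. The other arrays were 3 of E14 and 4 of E7, and all 14 entered the fit so that the ages shared 1 estimate of the spread. RPE sheets were taken from chicken embryos at each age, and the labels name no strain, sex or treatment, so the groups differ by age alone as far as the labels go. Each array carries one preparation pooled from 20 to 30 eyes, and the design text calls the preparations independent. The errors below therefore describe the spread between arrays of separate pools, with any difference of run or RNA, and not between embryos. Messenger RNA was amplified from its 3′ end, labelled with biotin and hybridized to Affymetrix chicken arrays. Of 38535 probe sets, the 38439 that are not controls were all tested. A single gene symbol was available for 27168 of them, and each of the resulting 13009 genes is represented by the probe set with the highest mean over the 14 arrays. Levels are given as log2(signal + 16) after quantile normalization, and differences as E18 minus E10 on that scale.

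The RPE is a single layer of pigmented cells between the photoreceptors and the choroid. It converts all-trans retinol back to 11-cis retinal for the photoreceptors, forms the outer blood-retinal barrier with its tight junctions, carries nutrients and ions between blood and retina, shades the eye with melanin and, once photoreceptor outer segments exist, engulfs their shed tips. In the chick the layer is pigmented and largely out of the cell cycle well before the photoreceptors mature, so most of its later development takes place in cells that have stopped dividing.

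The arrays carried the RNA of pigment epithelium at both ages. The probe sets of RLBP1, RGR, TYR, TYRP1, DCT, PMEL and OTX2, genes of the visual cycle, of melanin synthesis and of RPE identity, stood far above the lower limit for a dim signal (6.20, the 40th percentile of the mean levels) on all 7 arrays. The 4 E18 arrays did not form 1 tight set. E18 replicates 2 and 3 lay at 50.02 and 53.22 on the second principal component, and replicates 1 and 4 at -30.95 and -24.77, against -25.56 to -21.72 for the 3 E10 arrays. The pairs were also apart on the first component, along which the ages lay in order. There E18 replicates 2 and 3 were at 100.55 and 98.8 and replicates 1 and 4 at 71.63 and 67.23. The E14 arrays lay at 3.92 to 9.18 and the E10 arrays at -43.12 to -37.84. Instrument files were available for E18 replicates 1 and 4, for all E10 and E14 arrays and for E7 replicate 4, and give these 9 arrays the same hybridization time and scan day. E18 replicates 2 and 3 had none here, and their ratio of 3′ to 5′ signal for beta-actin was lower, at 1.229 and 1.1795, than in E18 replicates 1 and 4 (1.5596 and 1.4657) or in E10 (1.3611 to 1.4843). The run, the RNA and the pools of embryos cannot be told apart as sources of this split. The totals, and some of the lists and genes below, are also given for E18 replicates 1 and 4 and for replicates 2 and 3 taken alone against E10. The fit with replicates 1 and 4 held only the 9 arrays with instrument files, so E7 replicates 1 to 3 were left out too. The fit with replicates 2 and 3 kept all E7 arrays. The shared estimate of the spread therefore differs between these fits. Weights fitted to each array are lower where it lies further from the mean of its age. They ran from 0.65 to 0.93 at E18, 0.89 to 1.54 at E10, 1.11 to 1.75 at E14 and 0.60 to 1.14 at E7. For genes whose E18 arrays spread more than those of the other ages, the SE and adjusted p can therefore understate the error at E18. The ratio of 3′ to 5′ signal for EEF1A, an elongation factor, separated the ages, at 1.48 to 1.61 in the 4 E18 arrays and 1.30 to 1.43 in the 3 E10 arrays, while that for GAPDH overlapped (0.923 to 0.988 at E18 and 0.940 to 1.02 at E10). Its part in the results below was not tested. Per the instrument files, E18 replicates 1 and 4 were run on fluidics station 3, E10 replicate 1 on station 1 and E10 replicates 2 and 3 on station 2, so that station and age cannot be told apart among these arrays.

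Between E10 and E18, 7160 of the 38439 probe sets were called at an adjusted p under 0.05 (18.6%). Over genes, 1712 were higher (13.2%) and 2003 lower (15.4%), and 718 of the first (5.52%) and 648 of the second (4.98%) differed at least 2-fold. With E18 replicates 1 and 4 alone 1848 genes were higher and 1947 lower (3795 in all, 29.2%), and with replicates 2 and 3 alone 1761 were higher and 2395 lower (4156 in all, 31.9%). The split between directions depends on the scaling. Of the genes called, 46.1% were higher after quantile normalization, 41.1% on the scale as deposited and 62.1% after centring each array on its median, where only 906 genes were lower.

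The largest rises gathered genes of retinoid uptake, energy buffering, hormone activation and signalling. STRA6, the membrane receptor that takes up retinol from its carrier protein in blood, was at 14.21, 14.38, 14.32 and 14.11 in the E18 arrays and at 7.86, 7.93 and 7.63 in the E10 arrays. It was 87.5-fold higher (log2 difference 6.45, SE 0.16, adjusted p = 7.44e-14), the largest difference of the genes named here that were dim at neither age. CKMT1B, a mitochondrial creatine kinase, stood at 12.81, 13.54, 13.28 and 12.73 at E18 and 7.47, 6.48 and 6.10 at E10 (log2 difference 6.40, SE 0.29, adjusted p = 6.43e-11). HSD11B1B, named for a steroid dehydrogenase that acts on glucocorticoids, was 62.1-fold higher (log2 difference 5.96, SE 0.25, adjusted p = 2.38e-11), and DIO2, the deiodinase that makes active thyroid hormone, 33.0-fold higher (log2 difference 5.04, SE 0.15, adjusted p = 6.10e-13). For all 4 genes the lowest E18 array lay above the highest E10 array by more than 4 log2 units.

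Others among the 15 largest rises were ABI3, a partner of the actin-regulating WAVE complex (6.95), CDR2 (5.65), SOUL, a haem-binding protein (5.57), DRD4, a dopamine receptor (5.22), RGCCL (5.20), CLDN20 (5.19), AGT, the precursor of angiotensin (5.19), TRAF3IP3 (5.16), SLC9A3R2, a scaffold under the apical membrane (5.03), WIF1, a secreted Wnt inhibitor (4.95), and NTL (4.92). ABI3, CLDN20 and AGT were dim at E10, so the size of their rise rests on the constant added before the logarithm. With 1 in place of 16 it was 7.70 for ABI3, and with 64 it was 5.77. Of 4 probe sets for SLC9A3R2, 1 was called, and of 4 for NTL, 2 were called. The median over a gene's probe sets was 0.54 for SLC9A3R2, 2.88 for NTL, 3.15 for ABI3, 2.38 for RGCCL and 3.18 for CLDN20.

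**Figure D1:**
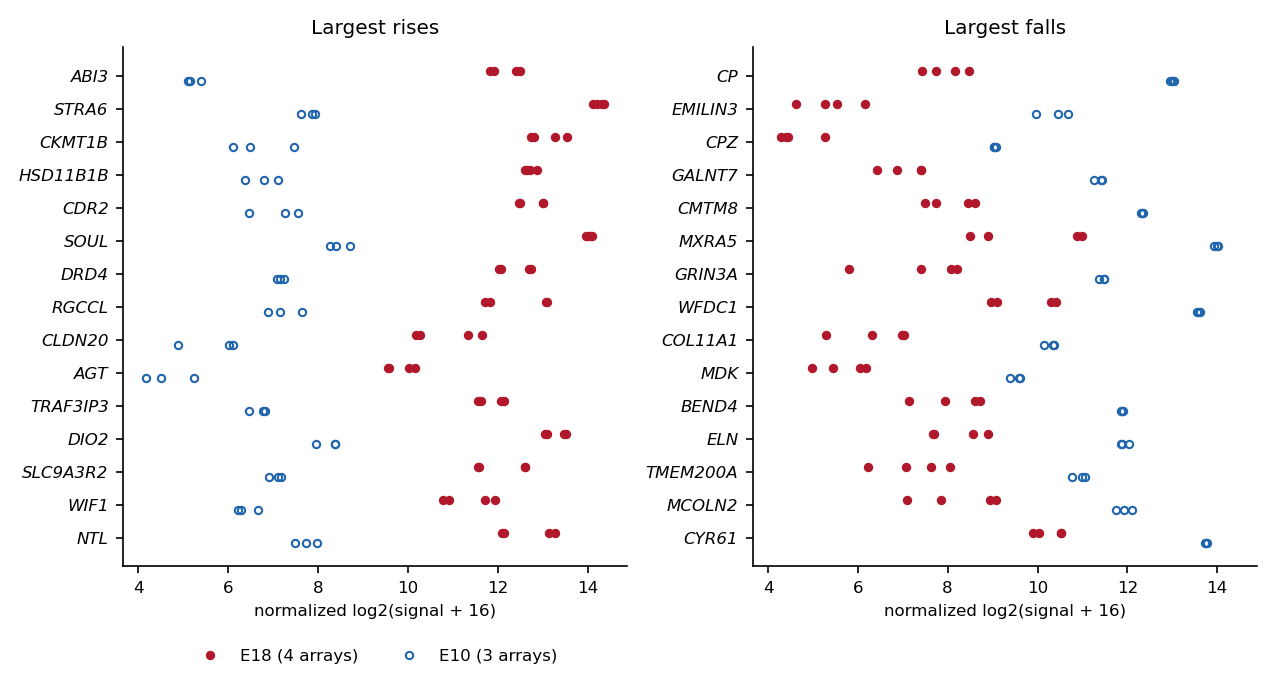
Normalized log2(signal + 16) of the 15 genes with the largest rises and the 15 with the largest falls, 1 point per array, filled for the 4 E18 arrays and open for the 3 E10 arrays. Only genes whose E18 and E10 arrays do not overlap could enter, so the lack of overlap follows from the choice. The E18 points of MXRA5 fall into 2 pairs, with replicates 2 and 3 (8.90 and 8.49) below replicate 1 (10.88) and its pair. A wide E18 spread is not particular to MXRA5. In each of the 15 falls the SD was larger at E18 than at E10, as in GRIN3A (1.10 and 0.07) and MCOLN2 (0.94 and 0.18). Among the rises this held for some genes and not for others.

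The largest falls were led by CP, ceruloplasmin, the copper enzyme that oxidizes iron for export. CP stood at 7.43, 8.47, 8.16 and 7.73 at E18 and at 12.95, 13.03 and 12.99 at E10 (log2 difference -5.04, SE 0.48, adjusted p = 4.97e-07), which is 33.0-fold lower, and 4 of its 5 probe sets were called lower. Many of the others encode secreted or matrix proteins: EMILIN3 (-4.97) and ELN (-3.72), a protein of elastic fibres and elastin itself, COL11A1, a fibrillar collagen chain (-3.89), MXRA5 (-4.16), CPZ, a Wnt-binding carboxypeptidase (-4.44), WFDC1 (-3.89), the growth factor MDK (-3.87) and the matricellular protein CYR61 (-3.50). GALNT7, an enzyme that starts or extends O-linked sugars (-4.35), GRIN3A, a glutamate receptor subunit (-4.07), CMTM8 (-4.26), BEND4 (-3.78), TMEM200A (-3.69) and MCOLN2, a lysosomal channel (-3.68), completed the 15. The median over a gene's probe sets was -1.13 for CP, -2.94 for EMILIN3, -2.50 for COL11A1 and -2.22 for GRIN3A. EMILIN3, CPZ and MDK were dim at E18, and the difference of CPZ was -5.97 with 1 added and -2.98 with 64 added.

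Of 25 measured genes of the visual cycle and of retinoid handling, 14 were higher and 2 lower at E18 (1 lower without E10 replicate 1 or E18 replicate 2). Over all 13009 genes 13.2% were higher and 15.4% lower. The median difference was 0.37, against -0.01 over all genes. RPE65, the isomerase that makes 11-cis retinol, was at 14.99, 15.06, 15.05 and 14.99 at E18 and 11.50, 11.65 and 11.58 at E10 (log2 difference 3.45, SE 0.14, adjusted p = 1.79e-11). LRAT, which makes the retinyl ester that RPE65 uses, lay between 8.53 and 10.10 at E18, with replicates 2 and 3 the higher pair, and at 4.71, 5.82 and 5.87 at E10 (log2 difference 3.89, SE 0.43, adjusted p = 3.42e-06), and, as it was dim at E10, the difference was 4.56 with 1 added before the logarithm and 2.91 with 64. TTR, which binds the retinol carrier and is secreted by the RPE, differed by 2.51, and BCO1, which cleaves beta-carotene, by 1.73. All 4 E18 arrays lay above all 3 E10 arrays in these 4 genes.

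RLBP1, the carrier of 11-cis retinoids, differed by 0.32 and RGR, an opsin of the RPE, by 0.37, both called; neither call held after median centring. Both genes lay near the top of the normalized range (15.35) at both ages, which limits the rise that can show. RDH5, an 11-cis retinol dehydrogenase, was at 14.69, 13.88, 13.84 and 14.57 at E18 and 13.51, 13.73 and 13.62 at E10 (log2 difference 0.62, SE 0.19, adjusted p = 0.0251). The RDH5 difference was larger with 1 pair of E18 arrays, being 1.01 with E18 replicates 1 and 4 and 0.24 with replicates 2 and 3 (adjusted p = 0.292), and its call was lost without E10 replicate 1 or 3 or without E18 replicate 1 or 4. ALDH1A2, which makes retinoic acid, fell 4.70-fold (log2 difference -2.23, SE 0.19, adjusted p = 1.05e-07). SCARB1, a scavenger receptor that takes up lipoprotein lipids and carotenoids, was at 15.08, 15.03, 15.04 and 14.96 at E18 and 10.62, 10.78 and 10.88 at E10 (log2 difference 4.27, SE 0.07, adjusted p = 4.17e-16). This was the smallest adjusted p among the genes named here, and the lowest E18 array lay far above the highest E10 array.

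Differences among melanin genes were small. Of 26 measured melanin and melanosome genes 3 were higher and 7 lower, beside 13.2% and 15.4% of all genes. In this list 2 rises and no fall reached 2-fold, and the median was -0.07. After median centring 4 were higher and 2 lower, with a median of 0.13. TYR, tyrosinase, was at 14.58, 14.50, 14.56 and 14.60 at E18 and 14.87, 14.90 and 14.90 at E10 (log2 difference -0.33, SE 0.05, adjusted p = 2.48e-04), a call lost on the deposited scale and after median centring. TYRP1 (log2 difference -0.05, SE 0.06, adjusted p = 0.591), DCT (log2 difference 0.02, SE 0.06, adjusted p = 0.881) and PMEL (log2 difference -0.09, SE 0.09, adjusted p = 0.597) were not called. DCT sat at the top of the normalized range, 15.35, on all E18 arrays, where no rise can show. SLC24A5, a melanosomal ion exchanger, fell by 0.95 and OCA2, a melanosomal membrane protein, by 0.63, the OCA2 call being lost after median centring, while DTNBP1, of the complex that sorts cargo to melanosomes, rose (1.07).

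Of 40 measured factors of the eye field and RPE, 5 were higher, 7 were lower and 28 were not called, shares near the 13.2% and 15.4% of all genes. The lower count was 11 on the deposited scale, and it was 7 with E18 replicates 1 and 4 alone (median 0.06) and 11 with replicates 2 and 3 alone (median -0.39). OTX2 differed by 0.09 (adjusted p = 0.416) and SOX9 by 0.14 (adjusted p = 0.702). MITF, the factor that drives pigment cell genes, was at 10.95, 11.19, 11.15 and 11.08 at E18 and 11.68, 11.55 and 11.64 at E10 (log2 difference -0.53, SE 0.13, adjusted p = 0.00770), a call lost after median centring and with E18 replicates 2 and 3 alone. PAX6 (-1.01) and ID4 (-1.66) fell, and SALL1 (2.82-fold), SOX10 (1.31) and NR2E1 (0.77) rose. SOX10 is best known from neural crest and EDNRB, an endothelin receptor of the same lineage, moved the other way (-2.09); of 18 crest, melanocyte and Schwann cell markers 2 were higher and 3 lower.

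Of 28 measured tight junction genes 5 were higher (CLDN20, CLDN2, TJP3, CLDN1 and OCLN) and 5 lower (MAGI1, JAM3, PATJ, MPDZ and CLDN5); TJP3, PATJ and MPDZ are named because they complete the count, after their values were seen. The counts are near those that 13.2% higher and 15.4% lower, the shares of all genes, would give. CLDN20 was at 10.28, 11.35, 11.65 and 10.17 at E18 and, dim, at 6.02, 4.88 and 6.10 at E10 (log2 difference 5.19, SE 0.40, adjusted p = 4.15e-08), with a difference of 5.78 when 1 was added before the logarithm and 4.25 with 64. MAGI1, a scaffold, fell by 1.54, but at 1 of its 9 probe sets only. CLDN2, a claudin that forms cation pores in other epithelia, rose by 1.70 and OCLN, occludin, by 0.85. CLDN5, the claudin best known from endothelium, was at 11.82, 11.82, 11.86 and 11.77 at E18 and 12.14, 12.22 and 12.21 at E10 (log2 difference -0.37, SE 0.08, adjusted p = 0.00358), a call lost after median centring. The scaffold TJP1 was not called (log2 difference -0.13, SE 0.17, adjusted p = 0.690). Among 29 adherens junction and polarity genes 7 were higher and 9 lower (5 and 4 after median centring). CDH3, P-cadherin, fell by 1.19 and CDH2, N-cadherin, by 1.15, PARD6G, a polarity protein, fell by 1.54, CDH11 rose (1.32) and CDH1 was not called (log2 difference -0.40, SE 0.19, adjusted p = 0.171).

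Of 21 genes of microvilli and actin 8 were higher and 5 lower; the counts went to 5 higher without E10 replicate 1 and to 2 or 3 lower without E10 replicate 1, 2 or 3 or E18 replicate 2 or 3. With E18 replicates 1 and 4 alone 7 were higher and 2 lower (median 0.37), and with replicates 2 and 3 alone 6 and 6 (median 0.06). ESPN, espin, which bundles actin in microvilli, was at 14.68, 14.75, 14.72 and 14.55 at E18 and 10.41, 10.88 and 11.01 at E10 (log2 difference 3.91, SE 0.14, adjusted p = 6.41e-12). MYO3A, a myosin of such protrusions, rose (2.85), and TPM1, a tropomyosin, fell (-1.61). Of 38 nutrient and metabolite transporters 16 were higher and 4 lower, beside 13.2% and 15.4% of all genes. SLC13A3, a dicarboxylate transporter, rose by 2.14, ABCC4, an organic anion pump, by 2.24, SLC6A12, a betaine and GABA transporter, by 1.55, and SLC6A9, a glycine transporter, by 1.42. The glucose transporter SLC2A1 differed by 0.51 and the lactate transporter SLC16A1 by 0.41, the second a call lost after median centring. ABCB1, the P-glycoprotein drug pump, was at 9.03, 7.80, 7.83 and 8.92 at E18 and 11.70, 11.70 and 11.81 at E10 (log2 difference -3.34, SE 0.26, adjusted p = 4.30e-08).

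Of 40 measured genes for ions and water 9 were higher and 4 lower (8 and 1 after median centring), beside 13.2% and 15.4% of all genes. In this list 15 were dim at both ages. CA14, a membrane carbonic anhydrase, was at 12.17, 11.80, 11.92 and 12.06 at E18 and 8.07, 6.62 and 7.09 at E10 (log2 difference 4.73, SE 0.40, adjusted p = 1.32e-07). The chloride transport proteins CLCN5 (1.51) and CLCN3 (0.81) and the bicarbonate cotransporter SLC4A7 (1.17) rose, as did ATP1B1, a subunit of the sodium pump (0.53). BEST1, bestrophin, an anion channel of the RPE, differed by 0.31 (adjusted p = 0.0341), a call lost after median centring and without any 1 of E10 replicates 1 and 3 and E18 replicates 2 and 3. AQP1 was dim at both ages.

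Of 40 phagocytosis and lysosome genes 9 were higher and 10 lower, beside 13.2% and 15.4% of all genes, and after median centring 7 and 5. SCARB1, described above, is on this list, and MFGE8, a bridge between dying cells or shed membranes and their receptor, rose by 1.69. The lysosomal protease CTSD rose by 0.44, a call lost after median centring. The lysosomal enzymes PPT1 (-1.39) and GUSB (-1.37) fell. MERTK, the receptor needed to engulf outer segments, was at 10.19, 10.66, 10.76 and 10.39 at E18 and 10.22, 10.31 and 10.41 at E10 and was not called (log2 difference 0.19, SE 0.15, adjusted p = 0.463).

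Respiratory and lipid lists held more called rises than the 13.2% of all genes. Of 34 measured subunits of complex I 19 were higher and none lower (median 0.28), and of 30 subunits of complexes II to V 19 were higher and none lower (median 0.36). The steps were small: the largest of those named were NDUFA5 (1.09), ATP5G1 (0.74), UQCRQ (0.74) and COX6A1 (0.71). After median centring 15 were still higher in each list. Of 30 genes of fatty acid and ketone oxidation 15 were higher and 3 lower. HADHB, a subunit of the trifunctional enzyme of beta-oxidation, was at 13.33, 13.33, 13.32 and 13.56 at E18 and 11.64, 11.57 and 11.52 at E10 (log2 difference 1.81, SE 0.07, adjusted p = 1.70e-11), and the acyl-CoA synthetases ACSL3 (1.98) and ACSL5 (2.46) rose, whereas the fatty acid binding protein FABP5 fell (-1.56).

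Sterol and fatty acid synthesis had 15 of 32 genes higher and 2 lower (median 0.51), among them HMGCS1, an early enzyme of the mevalonate pathway (1.73), MSMO1 (1.04) and the elongases ELOVL1 (2.01) and ELOVL5 (1.04). Of 30 genes of glycolysis and pyruvate control 12 were higher and 7 lower (9 and 3 after median centring). LDHA, a lactate dehydrogenase, was at 12.14, 10.78, 10.77 and 12.08 at E18 and 8.56, 9.12 and 8.81 at E10 (log2 difference 2.61, SE 0.29, adjusted p = 3.67e-06), and each E18 array exceeded each E10 array by more than 1.5. The pyruvate dehydrogenase kinases went apart: PDK4 (1.91) and PDK3 (0.68) rose and PDK1 fell (-1.01). Of 9 genes of creatine and energy buffering 4 were higher and 1 lower, and next to CKMT1B the cytosolic creatine kinase CKB rose (0.72). Of 21 tetraspanins, membrane proteins that organize surface domains, 4 were higher and 5 lower, with CD82 up (3.60) and CD9 down (-2.30). The higher count was 2 without E10 replicate 3 and at most 3 without any 1 E10 or E18 array. All counts in this paragraph are to be read beside the 13.2% higher and 15.4% lower of all genes.

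Of 51 antioxidant and metal-handling genes 25 were higher and 5 lower, beside 13.2% and 15.4% of all genes. SOD3, the extracellular superoxide dismutase, was at 11.18, 11.31, 11.33 and 10.98 at E18 and 7.42, 7.84 and 7.90 at E10 (log2 difference 3.48, SE 0.28, adjusted p = 8.47e-08). SQSTM1, an autophagy adaptor (1.89), GPX4, which reduces lipid peroxides (0.97), and NQO1, a quinone reductase (0.96), rose, and CP, described above, fell the most. Complement and antigen presentation had 12 of 29 genes higher and none lower. CLU, clusterin, was at 10.64, 9.61, 9.60 and 10.55 at E18 and 4.70, 5.43 and 5.62 at E10 (log2 difference 4.85, SE 0.32, adjusted p = 7.64e-09), dim at E10, with a difference of 5.63 with 1 added before the logarithm and 3.72 with 64, and B2M, the light chain of class I molecules, rose by 1.56. CD74, of class II presentation, rose by 1.01; of 32 macrophage and leukocyte markers 2 (CD74 and C1QA) were higher and 1 (CCL4) lower, the C1QA call was lost without E10 replicate 2 or 3 or E18 replicate 2 or 4 and the CCL4 call without E10 replicate 2, 18 were dim at both ages, and their summed signal was 9828 to 11429 at E18 and 8218 to 9710 at E10. In bulk tissue, a change in the number of cells of a type and in RNA per cell cannot be told apart, and the part of such cells in the rise of CD74 was not tested.

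DIO2 and HSD11B1B belong to a list with more rises than falls. Of 33 measured nuclear hormone receptors, their enzymes and targets 12 were higher and 3 lower (median 0.44), beside 13.2% and 15.4% of all genes. KLF9, a target of thyroid hormone and glucocorticoids, was at 10.96, 11.79, 11.82 and 11.17 at E18 and 7.01, 7.09 and 7.48 at E10 (log2 difference 4.24, SE 0.26, adjusted p = 3.32e-09). NR1D2, a nuclear receptor of the circadian clock, rose by 2.70, with 5 of 5 probe sets called higher. The clock list had 5 of 21 genes higher and 1 lower: HLF (1.60), BHLHE40 (1.71) and CLOCK (1.22) rose and BHLHE41 fell (-0.95, a call lost after median centring). Without E10 replicate 1 the clock list had 3 genes higher and 2 lower. The hour at which tissue was taken is not given in the labels, so the age and the time of day cannot be told apart for clock genes.

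More basement membrane genes were lower than higher. Of 38 measured genes of the basement membrane and its receptors 19 were lower and 5 higher (median -0.51), and 13 fell and 1 rose at least 2-fold. Without E10 replicate 1 the higher count was 3. FBLN1, fibulin 1, was at 10.63, 10.63, 10.61 and 10.74 at E18 and 13.16, 13.19 and 13.16 at E10 (log2 difference -2.52, SE 0.06, adjusted p = 7.44e-14). COL4A2, a chain of the basement membrane collagen (-1.51), EFEMP1, a fibulin (-1.22), and ITGB1, the common chain of many matrix receptors (-1.05), fell. FN1, fibronectin, was at 10.53, 10.31, 10.28 and 10.52 at E18 and 13.27, 13.39 and 13.36 at E10 (log2 difference -2.93, SE 0.08, adjusted p = 3.08e-13), and 5 of its 8 probe sets were called lower. Of 35 stromal matrix genes 7 were higher and 10 lower, E18 replicates 1 and 4 alone gave 8 higher and replicates 2 and 3 alone 5, and without E10 replicate 2 only 4 were higher. COL6A1, a collagen VI chain, rose, standing at 11.49, 10.95, 11.05 and 11.61 at E18 and 6.49, 7.13 and 6.72 at E10 (log2 difference 4.50, SE 0.27, adjusted p = 2.47e-09). Of 16 cartilage matrix genes 4 were higher (2 without E10 replicate 1) and 4 lower: MATN2 (4.12) and HAPLN1 (2.95) rose and COL11A1 and COL2A1 (-2.29) fell. The counts of these matrix lists stand beside 13.2% higher and 15.4% lower over all genes.

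Of 58 secreted growth factors and their binders 9 were higher and 12 lower, shares close to the 13.2% and 15.4% of all genes. MDK, midkine, was at 6.05, 5.44, 4.98 and 6.18 at E18 and 9.40, 9.60 and 9.59 at E10 (log2 difference -3.87, SE 0.22, adjusted p = 1.24e-09), while its relative PTN was slightly higher (log2 difference 0.65, SE 0.22, adjusted p = 0.0484), a call lost without any 1 array other than E18 replicate 3. PDGFA, a mitogen, fell by 2.03, and SERPINF1, pigment epithelium-derived factor, rose by 1.20 and VEGFA, the vascular growth factor, by 0.49. In the Wnt list 5 of 46 genes were higher and 11 lower. WIF1 was at 10.79, 11.93, 11.72 and 10.92 at E18 and 6.22, 6.29 and 6.67 at E10 (log2 difference 4.95, SE 0.26, adjusted p = 5.23e-10), the Wnt receptor FZD6 fell by 1.46 and TNFRSF19 by 1.89, and the ligand WNT5A rose by 0.69. Of 46 axon guidance genes 9 were higher and 13 lower, with SLIT3 (-2.31), NRP1 (-2.20) and EPHA7 (-1.35) down and SEMA5A up (1.99).

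**Figure D2:**
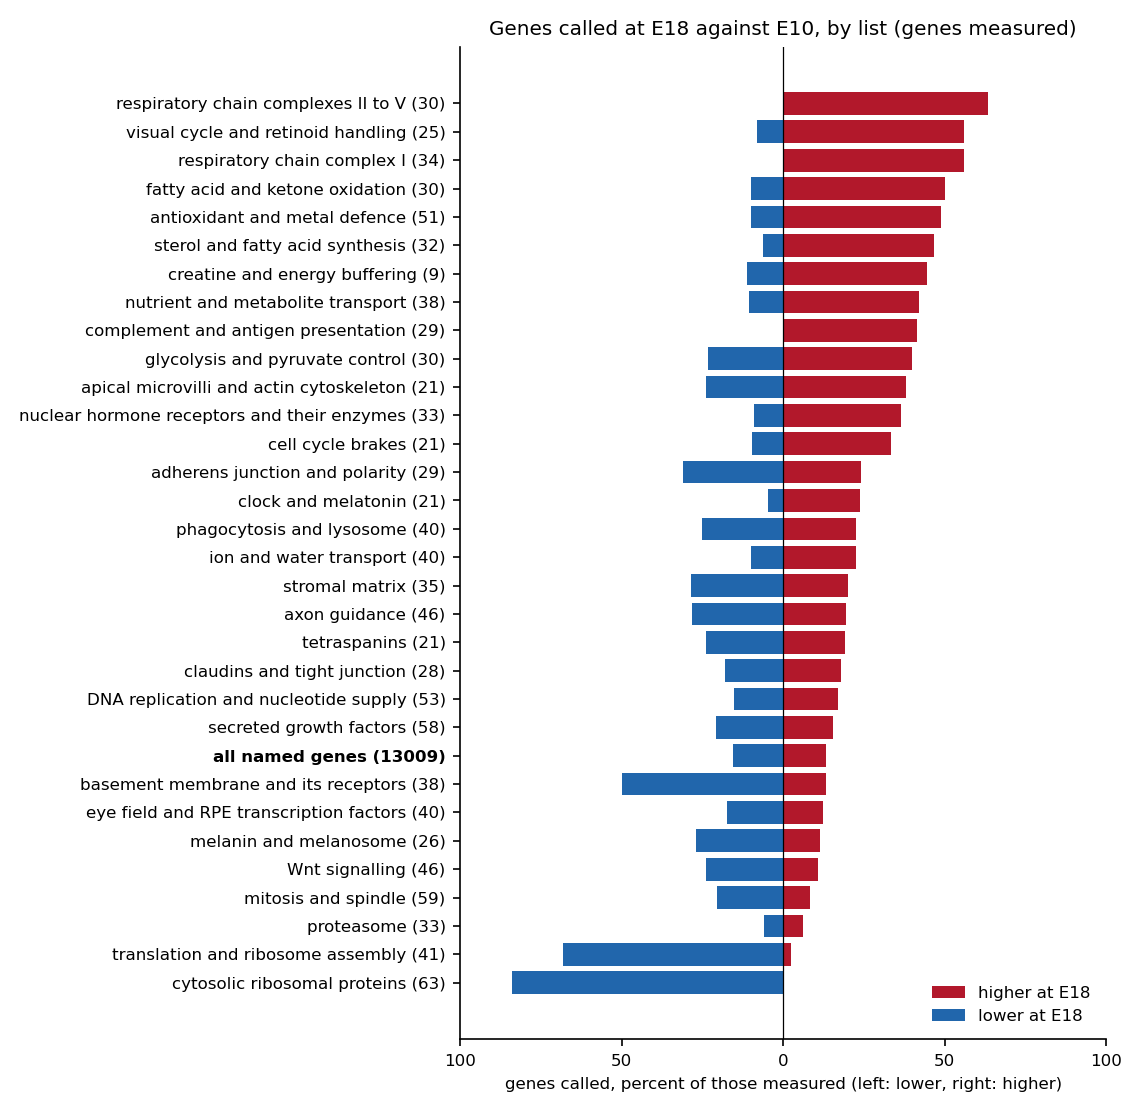
Percent of the measured genes of each list called higher (right) or lower (left) at E18 against E10, with the number measured in brackets and all 13009 named genes in bold. Complexes II to V (19 of 30 higher), the visual cycle (14 of 25) and complex I (19 of 34) reach furthest to the right, and ribosomal proteins (53 of 63 lower) and translation (28 of 41 lower) furthest to the left.

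The genes of the protein-making machinery were lower by small steps. Of 63 measured cytosolic ribosomal proteins 53 were lower and none higher, with a median of -0.45, and 4 fell at least 2-fold. RPS12 was at 12.99, 12.66, 12.70 and 13.02 at E18 and 14.32, 14.11 and 14.18 at E10 (log2 difference -1.37, SE 0.09, adjusted p = 8.71e-09), and RPL22L1 fell by 1.61. Of 41 genes of translation and ribosome assembly 28 were lower and 1 higher (none higher without E10 replicate 3). MYCN, a factor that drives growth and ribosome production, was at 10.20, 9.66, 9.71 and 10.01 at E18 and 11.92, 11.72 and 11.57 at E10 (log2 difference -1.85, SE 0.12, adjusted p = 7.04e-09), and the initiation factor EIF3L fell by 0.96. These counts rest on the scaling: after median centring, which shifted the median of all genes to 0.09, 4 ribosomal proteins were lower (median -0.18) and 5 translation genes (median -0.25), whereas on the deposited scale 40 and 23 were lower. E18 replicates 1 and 4 alone gave 55 ribosomal proteins lower and replicates 2 and 3 alone 54. Over all genes 13.2% were higher and 15.4% lower. The proteasome list was below these shares in both directions, with 2 of 33 higher and 2 lower (1 lower without E10 replicate 2 or 3 or E18 replicate 1).

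Most mitosis genes were already lower at E10 than at E7, and fewer were called between E18 and E10. Of 38439 probe sets 2517 differed between E10 and E7 (6.55%). At E10 794 genes were higher than at E7 (6.10%) and 700 lower (5.38%), and among 59 measured mitosis genes 33 were lower at E10 than at E7 and 1 higher (median -1.35). Between E10 and E18, 12 of the 59 were lower and 5 higher (median -0.21), beside 15.4% lower and 13.2% higher of all genes. After median centring 6 were lower and 5 higher. E18 replicates 1 and 4 alone gave 10 lower and 3 higher, and replicates 2 and 3 alone 14 and 6. Leaving out 1 array gave a lower count of 7 without E10 replicate 3 and a higher count of 3 without E10 replicate 1 or E18 replicate 3. In the list 15 genes were dim at both E18 and E10. TOP2A, a topoisomerase of dividing cells, was at 7.74, 7.41, 7.20 and 7.70 at E18 and 7.72, 7.99 and 7.41 at E10 (log2 difference -0.20, SE 0.21, adjusted p = 0.611), while its E10 minus E7 difference was -1.61 (adjusted p = 8.92e-05). MKI67 was dim at both E18 and E10 (log2 difference -0.28, SE 0.45, adjusted p = 0.757), after an E10 minus E7 difference of -3.56. CDK1 differed by -0.75 (adjusted p = 0.0469), a call lost after median centring and without any 1 of the 3 E10 arrays or of E18 replicates 2 and 3. The E10 arrays enter both intervals, so the values are given side by side and no relation between them was tested.

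A few division genes still changed with ample margin. STMN1, stathmin, which destabilizes microtubules, was at 11.27, 10.32, 10.17 and 11.18 at E18 and 13.32, 13.23 and 13.28 at E10 (log2 difference -2.54, SE 0.20, adjusted p = 5.92e-08), BUB3 fell by 1.01 and TACC3 by 0.80. CENPI, a centromere protein, rose by 1.98. Of 53 DNA replication genes 9 were higher and 8 lower, close to the shares of all genes (13.2% and 15.4%), and the higher count was 4 on the deposited scale and 5, beside 4 lower, after median centring. Leaving out 1 array gave 4 higher without E18 replicate 3, 5 higher without E10 replicate 1 or 2, and 5 lower without any of 4 arrays (E10 replicates 1, 2 and 3 and E18 replicate 2). HELLS, a chromatin remodeller, fell by 3.49 at 1 probe set and was called higher at its other. PCNA, the replication clamp, differed by -0.26 (adjusted p = 0.0371), a call lost on the deposited scale, after centring and without E10 replicate 1 or 2 or E18 replicate 2 or 4. Among 21 genes that restrain the cycle 7 were higher and 2 lower: CDKN1B, an inhibitor of cyclin-dependent kinases, fell by 1.18, GADD45G rose (1.83) and CDKN1A was not called (log2 difference -0.16, SE 0.40, adjusted p = 0.849).

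**Figure D3:**
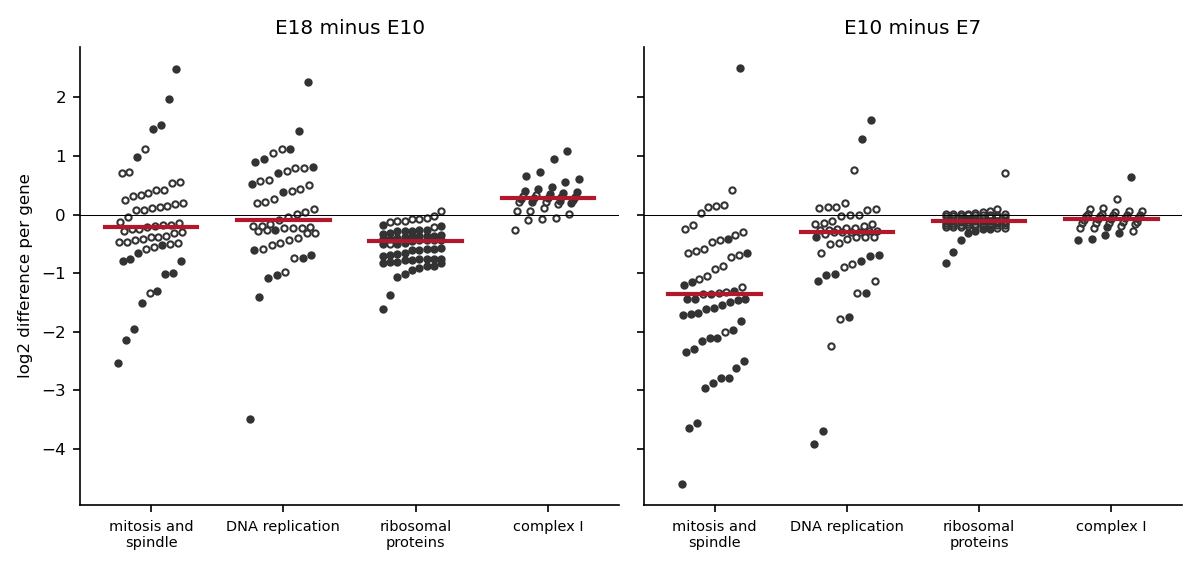
Log2 difference of every measured gene of 4 lists, for E18 minus E10 (left) and E10 minus E7 (right); filled points are called, open points are not, and red bars are medians. The mitosis list lies at a median of -0.21 on the left and -1.35 on the right, and complex I at 0.28 and -0.07.

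E14 lies midway between E10 and E18, so each change can be split at E14. At E14 1119 probe sets differed from E10 (2.91%), and 418 genes were higher (3.21%) and 233 lower (1.79%). At E18 4098 probe sets differed from E14 (10.7%), and 906 genes were higher (6.96%) and 1385 lower (10.6%). The first comparison had 3 arrays against 3 and the second 4 against 3. With only the 9 arrays that have instrument files, the E14 against E10 count was 3160 and the E18 against E14 count 3845. The relative size of the 2 counts therefore depends on the arrays used. Of the 718 genes at least 2-fold higher at E18, the median gene had made 39.9% of its change by E14 (quartiles 23.3% and 58.4%), and of the 648 at least 2-fold lower it had made 29.1% (quartiles 17.0% and 44.9%). These shares, and those of single genes below, rest on the mean of all 4 E18 arrays. They are not given for each pair of E18 arrays. E14 departed from the midpoint of E10 and E18 in 185 genes upward (1.42%) and 96 downward (0.738%). Among the 718 risers 50 were called short of the midpoint and 17 past it, and among the 648 fallers 66 short and 2 past. The number of such departures changed with the arrays used. With all 4 E18 arrays 465 probe sets departed (1.21%), with replicates 1 and 4 alone 1102 and with replicates 2 and 3 alone 2141. The fit behind 1102 also left out E7 replicates 1 to 3, so that number does not rest on the choice of E18 arrays only. In that fit the E14 against E10 count, which compares no E18 array, moved as well.

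TTR, RPE65 and SCARB1 were past the midpoint of their rise at E14. TTR stood at 12.36 ± 0.05 at E10, 14.51 ± 0.05 at E14 and 14.87 ± 0.04 at E18 (SD, n = 3, 3 and 4), so that 85.7% of its change was made by E14, past the midpoint (departure 0.90, adjusted p = 3.61e-05). RPE65 had made 65.8% (departure 0.54, adjusted p = 0.0445) and SCARB1 60.7% (departure 0.46, adjusted p = 0.00180). The E18 means of TTR, RPE65 and SCARB1 (14.87, 15.02 and 15.03) lay near the top of the normalized range (15.35). That can limit the rise that shows after E14 and so enlarge the share made by E14, which was not tested. STRA6 took even steps, 3.20 from E10 to E14 and 3.25 from E14 to E18, with 49.6% made by E14.

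Other genes had made little of their rise by E14. NTL was at 7.74 ± 0.24 at E10, 7.96 ± 0.39 at E14 and 12.66 ± 0.63 at E18, so that 4.53% of its rise was made by E14 (departure -2.24, adjusted p = 2.43e-04). GCH1, which starts the synthesis of tetrahydrobiopterin, had made 3.30%, KCNJ1, a potassium channel, 3.65%, SLC9A3R2 12.9% and DRD4 17.1%, all called short of the midpoint. NTL and these genes were picked as the largest departures below the midpoint among genes called there. That they are called therefore follows from the choice. GCH1 was at 10.25 and 10.29 in E18 replicates 1 and 4 and at 11.56 and 11.55 in replicates 2 and 3, all above the E14 and E10 arrays. Among the falls ABCB1 (0.770%) and ALDH1A2 (-5.94%) did not differ from E10 at E14 by the test. GALNT7 was the opposite case, with 81.8% of its fall made by E14 (departure -1.38, adjusted p = 0.00215).

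Some genes had a higher mean at E14 than at E10 and E18. HMOX1, haem oxygenase 1, was at 7.82 ± 0.16 at E10, 10.99 ± 0.02 at E14 and 9.75 ± 0.62 at E18 (departure 2.20, adjusted p = 1.78e-04). OSGIN1, an oxidative stress response gene (departure 2.47), and ZFAND2A, a gene of the arsenite and heat response (departure 1.76), fell between E14 and E18 (-1.95 and -1.34, both called). CLDN1 was at 11.83 ± 0.09, 13.37 ± 0.06 and 12.82 ± 0.08 at the 3 ages (departure 1.04, adjusted p = 0.0135), and its step from E14 to E18 was not called (adjusted p = 0.143). The E18 minus E10 difference of OSGIN1, 1.04, was lost as a call without E10 replicate 1 or 3 or E18 replicate 1 or 4. CXCL14, a chemokine dim at E10, had its E18 arrays at 8.60, 7.56, 6.90 and 8.82 and its E14 mean at 8.86. E18 replicates 1 and 4 thus lay near the E14 mean and replicates 2 and 3 below it. No test of the step from E14 to E18 is given here for HMOX1 or CXCL14. HMOX1, OSGIN1, ZFAND2A and CXCL14 were picked as large upward departures among called genes, so their called departures follow from the choice.

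**Figure D4:**
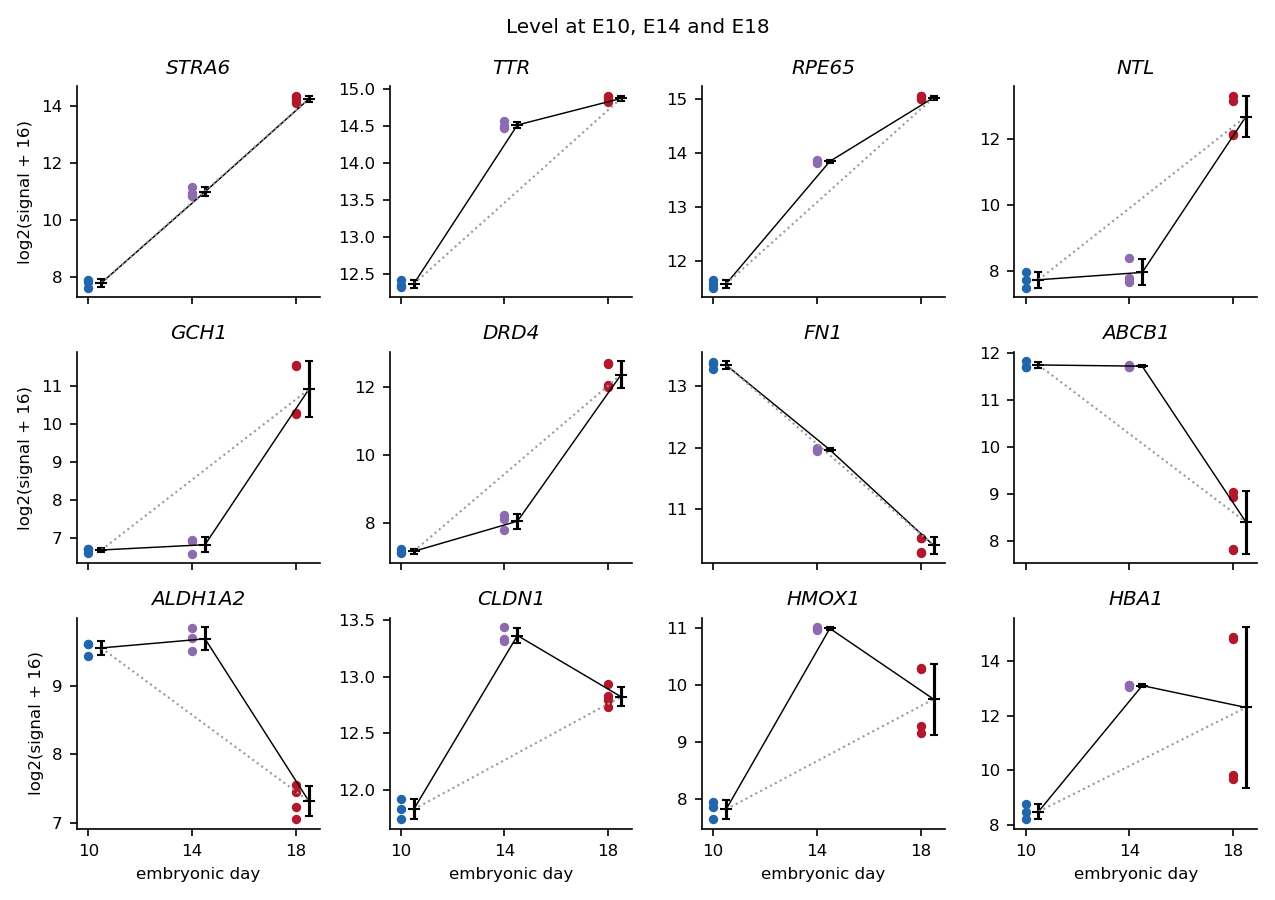
Normalized log2(signal + 16) of 12 genes at embryonic days 10, 14 and 18, 1 point per array, with the mean and SD drawn to the right (n = 3, 3 and 4) and a dotted line joining the E10 and E18 means. TTR and CLDN1 lie above the dotted line at E14, NTL, GCH1 and DRD4 below it, and HBA1 splits at E18 into arrays at 14.88 and 14.83 and arrays at 9.84 and 9.67.

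Markers of other cells set a frame for these values. Their counts are to be read beside the shares of all genes called, 13.2% higher and 15.4% lower. HBA1, an alpha globin of red cells, was at 14.88, 9.84, 9.67 and 14.83 in E18 replicates 1 to 4 and at 8.19, 8.48 and 8.77 at E10 (log2 difference 3.82, SE 1.20, adjusted p = 0.0329). It was 6.38 higher with replicates 1 and 4 and 1.27 with replicates 2 and 3 (adjusted p = 0.391), and the call was lost without any 1 of the 3 E10 arrays or of E18 replicates 1 and 4. Of 17 erythrocyte markers 4 were higher and 1 lower with all arrays, 11 higher with replicates 1 and 4 alone and 1 higher with replicates 2 and 3 alone, and leaving out 1 array gave 2 to 7 higher (2 without any E10 array or without E18 replicate 1 or 4, 7 without E18 replicate 2 or 3). Their summed signal was 29308 to 86405 at E18 and 22722 to 24512 at E10, with 1 dim at both ages. At E10 TFRC (mean 11.03) and EPB41 (12.43), which are not globins, stood above HBA1 (8.48). TFRC is 1 of the 4 higher and EPB41 the 1 lower. Count and sum therefore do not report on globins alone.

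Of 30 photoreceptor markers 4 were higher, a share near the 13.2% of all genes, and none lower. The 4 were PDE6G (2.79), GNAT2 (2.88, dim at E10), PRPH2 (1.43) and GUCA1A (1.33). Of the 30 markers 11 were dim at both ages. PRPH2 was dim at both ages and lost its call without E10 replicate 2 or 3 or E18 replicate 3, GUCA1A without E10 replicate 2 or E18 replicate 1, 2 or 3, and without E10 replicate 2 or E18 replicate 3 the count was 2, and without E18 replicate 4 another gene was lower. E18 replicates 1 and 4 alone gave 2 higher, and replicates 2 and 3 alone 6 higher and 1 lower. Their summed signal was 11215 to 12487 at E18 and 10237 to 10721 at E10. Of 40 markers of other retinal neurons and glia 4 were higher (2 without E10 replicate 2 or E18 replicate 2 or 3) and 6 lower. Their summed signal was 87550 to 97017 at E18 and 73367 to 90777 at E10. This list holds RLBP1, named above as a visual cycle gene of the RPE, which is 1 of the 4 higher. With means of 15.2 at E18 and 14.9 at E10 RLBP1 weighs heavily on the sum. Count and sum therefore do not report on neurons and glia alone. PROX1 rose (2.82) and ELAVL4 (-2.14) and SNAP25 (-1.47) fell. Of 25 endothelial markers none was higher (1 without E18 replicate 3) and 2 were lower, CLDN5 and CD34, with 11 dim at both ages. CD34 was dim at both ages, and its call was lost without E10 replicate 2 or 3 or E18 replicate 2, 3 or 4. The summed signal was 5713 to 6300 at E18 against 6972 to 7249 at E10. CLDN5, also counted above as a tight junction gene, makes up most of this sum (means 11.82 at E18 and 12.19 at E10). The lower sum therefore does not describe the endothelial list as a whole. Of 25 muscle markers 1 was higher and 3 lower, none of the 3 holding without E10 replicate 2 or 3 or E18 replicate 3, and the sum was 3284 to 3906 at E18 and 4169 to 4488 at E10. Of 23 lens and ciliary markers 4 were higher and 1 lower, OPTC, opticin, among the higher (1.18), and the sum was 26106 to 30980 at E18 and 16960 to 19005 at E10. With means of 13.70 at E18 and 12.52 at E10 OPTC weighs heavily on this sum. The higher sum therefore does not describe the lens and ciliary list as a whole. Immediate-early and heat shock genes, which report on handling, had 3 of 29 higher and 7 lower, the lower count going to 3 or 4 without E10 replicate 1, 2 or 3 or E18 replicate 2 or 4 and the higher to 1 without E10 replicate 3. The part of these cells and of handling in the results above was not tested.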

How the data were processed

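The deposited table gives 1 linear intensity per probe set and array, scaled by the authors to a common trimmed mean (500.1 on every array, from the values); the software is not given in the sources used here. The other deposited files are instrument files for 9 arrays that, per the file headers, hold scanner and fluidics settings and no expression values; they served only to mark a shared hybridization time and scan day. Median intensities ran from 83.5 to 144.9, correlations between arrays from 0.888 to 0.971, and no pair of arrays held identical values. The number of arrays limits the precision.

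The 96 control probe sets were left out, 16 was added, log2 taken and the arrays quantile normalized. limma 3.58.1 in R 4.3.3 (lmFit and eBayes with a trend, all 14 arrays, 1 mean per age) gave every difference, and Benjamini-Hochberg adjustment ran over the 38439 probe sets of each contrast; a call is an adjusted p under 0.05. The same steps were tested on simulated data. Tables and plots used Python 3.11.15, pandas 2.3.3 and matplotlib 3.10.9. Names came from the platform annotation, with 177 probe sets of several symbols and 11094 of none left unnamed; 26853 probe sets matched a RefSeq gene by its identifier, and listed genes were matched by symbol or RefSeq synonym. A gene is dim at an age when its mean there is under 6.20, a signal of 57.5.

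The genes named are the 15 largest rises and falls with arrays that do not overlap, from each list its largest difference and up to 4 genes of lowest adjusted p, the extremes of timing at E14, and a set of RPE and division genes always given. TJP3, PATJ and MPDZ fall outside that rule. The comparison, the 41 gene lists and the rule were chosen with earlier results of these data known. Replicate numbers come from the labels; deviations of same-numbered E18 and E10 arrays correlated at -0.0205, 0.0083 and -0.0227, so the numbers were not taken to pair arrays. The alternatives were the scaling, the added constant, filters on dim probe sets, the trend, array weights, the 7 arrays alone, the replicate and instrument-file blocks, stricter calls, the median over a gene's probe sets and leaving out each array.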

Additional observations from a re-analysis of the deposited data

Results flagged for a closer look

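In 7 of the genes named, 1 of the 4 E18 arrays stood far from the others by Dixon's test, which chance alone flags in about 1 in 20 groups. The naming rule takes 232 genes, and 7 is no more than that rate would give if the 4 E18 arrays were alike. But E18 replicates 1 and 4 lay apart from replicates 2 and 3. A gap between such pairs can hide an array that stands apart, so the comparison with that rate cannot decide. The 3 E10 arrays were not tested in this way. HADHB was at 13.56 in E18 replicate 4, against 13.32 to 13.33 in the other E18 arrays. FBLN1 was at 10.74 in E18 replicate 4, against 10.61 to 10.63. PCNA was at 11.16 in E18 replicate 4 and at 11.31 in the others. FZD6 was at 9.18 in E18 replicate 1, against 9.51 to 9.55. EIF3L was at 12.03 in E18 replicate 3, against 12.07 to 12.08. CPZ, dim at E18, was at 5.28 in E18 replicate 1, against 4.30 to 4.45, and AQP1, dim at both ages, was at 5.82 in E18 replicate 4, against 4.33 to 4.50. Leaving out the array that stood apart ended the call of PCNA, and the calls of HADHB, FBLN1, FZD6, EIF3L and CPZ held without any 1 array; AQP1 was not called.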

How the results depend on the processing

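The E18 against E10 count of 7160 probe sets stayed within 1.5 times under every alternative but the stricter calls: 4731 at an adjusted p under 0.01, 3166 at 2-fold or more, and 5609 to 7236 without 1 array. Genes higher (1712) were 718 at 2-fold and 1401 to 1663 without 1 array; genes lower (2003) were 906 after median centring, 648 at 2-fold and 1592 to 2088 without 1 array. The 569 listed genes called became 249 at 2-fold and 484 to 562 without 1 array. The E14 against E10 count of 1119 became 552 after centring, 509 without the trend, 2423 with array weights, 3160 with instrument-file arrays only, 1684 with the instrument file as a block, 551 at 0.01, 402 at 2-fold, and 669 (without E10 replicate 1) to 1206. The E18 against E14 count of 4098 became 2282 after centring, 6602 with E18 replicates 2 and 3 only, 2388 at 0.01, 1576 at 2-fold, and 3056 to 4681 without 1 array. The 465 midpoint departures became 173 after centring, 110 without the trend, 1167 with weights, 1102 with instrument-file arrays only, 2141 with E18 replicates 2 and 3 only, 148 at 0.01, 137 at 2-fold, and 292 (without E10 replicate 3) to 659. The E10 against E7 count of 2517 became 919 after centring, 1416 without the trend, 1369 at 0.01, 803 at 2-fold, and 1626 (without E10 replicate 3) to 2661. With the replicate number as a block, the counts were 7226, 1040, 4265, 471 and 2534 in the same order (E18 against E10, E14 against E10, E18 against E14, midpoint, E10 against E7), with 1688 genes higher, 2026 lower and 558 listed genes. After median centring the differences of PSMA1 and PSMB1, proteasome subunits, turned to 0.0082 and 0.0361 (main values -0.30 and -0.30). With the median over a gene's probe sets, which has no test, the values of 78 of the 232 genes that the naming rule takes moved by more than the spread between replicates and 154 did not, and no called value changed sign. Except for the stricter calls and fewer arrays, the cause of these moves was not tested. Array signal near the dim limit and 3 or 4 pools per age limit what can be seen. The p-values here measure the spread between arrays, in which pool, run and RNA cannot be told apart.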
